A study of Mus musculus with 4 samples.

Results

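Interferon-signature B cells were studied among antigen-specific B cells sorted from immunized mouse spleens. A cell was counted as one when its transcriptome held 3 or more molecules of Ifit3 and Isg15 together, both of which are textbook interferon-stimulated genes. The cell also had to carry 100 to 5500 detected genes, under 10% mitochondrial counts, under 50 Jchain counts per 10000 and no count of the T cell genes Cd3d, Cd3e, Cd3g and Trbc2. Of 29473 barcodes in 2 mRNA libraries, 22108 met the quality and cell type limits (eligible cells), and 94 of these met the Ifit3 plus Isg15 limit. The CD45.2 library held 84 of them among 18516 eligible cells (0.454%, exact binomial 95% interval 0.362 to 0.561), and the CD45.1 library held 10 among 3592 (0.278%, 0.134 to 0.511). These intervals cover counting error only. The eligible CD45.2 cells were deeper, with a median of 6469 molecules against 4754 in the CD45.1 library, and deeper cells have more chance to reach 3 molecules.

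All cells carried the MD4 transgene, a B cell receptor specific for hen egg lysozyme (HEL), and were transferred as a mixture into CD45.1 wild-type recipients that received HEL-coupled sheep erythrocytes as antigen. On day 8, HEL-binding CD95+ spleen cells were sorted as CD45.1+ or CD45.2+ and hashtagged by recipient. The CD45.1+ cells were Dock8 wt/wt in all recipients, whereas the CD45.2+ cells carried a B cell-restricted BCL2 transgene and were Dock8 wt/wt in 3 recipients (the wt/wt group) and Dock8 cpm/cpm, an N-ethyl-N-nitrosourea mutant that lacks the DOCK8 protein, in the other 3 (the cpm/cpm group). Neither group was free of the receptor transgene, and no CD45.2+ cell was free of the BCL2 transgene, so the sort, its library and the BCL2 transgene cannot be told apart. Bcl2 matched the labels, at 131 to 192 CPM (counts scaled to the same library total, parts per 1000000) in the CD45.2 cells of the 6 mice and at 24.3 to 36.1 CPM in the CD45.1 cells, as measured in the eligible cells outside the signature.

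The hashtags of the CD45.2 library had a limit that bears on every comparison by mouse. Among its eligible cells with a wt/wt hashtag, 98.2% had a count of Xist, the RNA of the inactive X chromosome, and 6.90% had a count of the Y-linked genes Ddx3y, Eif2s3y, Uty or Kdm5d. Among those with a cpm/cpm hashtag, 52.5% had Xist, 59.4% had a Y-linked gene and 28.9% had both. The supplement of the study describes the wt/wt cells as of male and the cpm/cpm cells as of female origin. The wt/wt hashtags thus ran against the stated sex and the cpm/cpm hashtags marked a mixture. The cpm/cpm hashtags marked fewer eligible CD45.2 cells, 210, 137 and 405 in mice 1 to 3 against 1906, 2561 and 1518 for wt/wt. The study reported that BCL2 rescued DOCK8-deficient germinal centre B cells only in part. Whether hashtags were exchanged was not tested. The names wt/wt and cpm/cpm are used below as the hashtags give them, and every direction between these CD45.2 groups depends on them. The CD45.1 cells did not show this mixture, with Xist in 95.2% and 94.1% of cells by recipient group. The 2 mRNA libraries shared 38 barcodes, none of which belonged to an interferon-signature cell.

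Type I and type III interferons bind cell surface receptors that activate the kinases JAK1 and TYK2, and a transcription factor complex with STAT2 and IRF9 then binds the interferon-stimulated response element before its target genes. The targets include proteins that bind viral RNA, degrade it or block its translation, the ubiquitin-like modifier ISG15 and its conjugation enzymes, DNA sensors of the PYHIN family, and brakes on the pathway itself such as USP18 and SOCS1. Interferon-γ has a receptor of its own and is known for inducing guanylate-binding proteins and antigen presentation genes.

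To show what the leading genes shared before their start sites, the RefSeq promoter sequences (build GRCm38.p6) were searched on both strands for GAAA, any 2 bases and GAAA again, the core letters of the interferon-stimulated response element, within the 250 bases before the start. The windows of 60 bases that hold the match nearest the start are given 5′ to 3′ on the strand of the gene for the rule genes and for 5 others with large differences, with the matching bases in capitals. Overlapping matches run together, and a match on the opposite strand reads TTTC, 2 bases and TTTC.
Isg15: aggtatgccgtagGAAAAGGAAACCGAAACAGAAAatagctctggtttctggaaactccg
Ifit3: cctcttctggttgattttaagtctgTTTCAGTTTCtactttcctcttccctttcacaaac
Ifit1: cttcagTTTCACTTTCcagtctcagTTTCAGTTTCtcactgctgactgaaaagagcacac
Bst2: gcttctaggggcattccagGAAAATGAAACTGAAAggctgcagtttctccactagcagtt
Ifi213: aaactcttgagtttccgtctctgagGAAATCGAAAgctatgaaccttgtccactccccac
Rsad2: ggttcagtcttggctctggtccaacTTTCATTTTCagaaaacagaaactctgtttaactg
Slfn5: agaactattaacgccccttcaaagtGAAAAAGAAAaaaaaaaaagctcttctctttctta

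These windows lay at chr4:156200850-156200909 on the minus strand for Isg15, chr19:34583382-34583441 on the plus strand for Ifit3, chr19:34640779-34640838 on the plus strand for Ifit1 and chr8:71537562-71537621 on the minus strand for Bst2. Those of Ifi213 and Rsad2 lay at chr1:173599311-173599370 and chr12:26456538-26456597, both on the minus strand. That of Slfn5, at chr11:82951922-82951981 on the plus strand, overlapped the GENCODE M21 models of Slfn5 and Slfn5os outside their exons, while the other 6 overlapped no annotated gene. The window of Ifit3b, a near-identical neighbour of Ifit3, was the same 60 bases at chr19:34607778-34607837. Irf7, Ifit2, Ifitm3, Oasl1, Tnfsf10 and Axl had no match, which says only that these letters were not in this stretch. Of all 27025 genes in the promoter table, 936 (3.46%) held a match, beside 28 of the 72 matched genes (38.9%) that were called higher in interferon-signature cells in the test below and 0 of the 23 called lower. By family, a match stood before 9 of 10 interferon-inducible GTPase genes, 15 of 24 PYHIN and TRIM30 family genes and 12 of 32 interferon effector genes found in the table, but before 4 of 26 sensors and signalling genes, 1 of 15 surface and lymphocyte targets and 0 of 4 ISG15 conjugation genes. These shares are a description, with no test.

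Of the 22108 eligible cells, 20840 had no count of Ifit3 or Isg15, 1063 had 1, 111 had 2, 29 had 3, 12 had 4, 10 had 5, 22 had 6 to 9 and 21 had 10 or more. Among the 94 cells chosen, 53 had both genes, 33 had Isg15 alone and 8 had Ifit3 alone, and the highest sum was 41 molecules in a cell with 27321 in all. Summed over the CD45.2 library, Ifit3 (chr19:34583531-34588731) stood at 276 CPM in the chosen cells and 1.51 CPM in the other eligible cells, and Isg15 (chr4:156199424-156200818) stood at 402 and 6.11 CPM. These 4 values follow from the choice of cells and are given as a description.

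The other interferon genes, which the choice did not use, moved along the same scale. The summed level of 38 interferon effector genes, antiviral proteins other than Ifit3 and Isg15, had a median of 21.6 counts per 10000 in cells with no count of Ifit3 or Isg15 and of 24.3 in cells with 1. Just below the limit, at 2 molecules, it was 37.1, and just above it, at 3 to 4 molecules, it was 45.0. It was 84.4 at 5 to 9 molecules and 90.7 at 10 or more. Deeper cells have more chance to reach 3 molecules, and the chosen CD45.2 cells were deeper, with a median of 8399 molecules against 6458. When each cell was thinned to 2000 molecules, the mean number of effector genes detected still went from 3.31 in cells with none to 5.58, 6.20, 9.34 and 10.9 in cells with 2, 3 to 4, 5 to 9 and 10 or more.

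**Figure D1:**
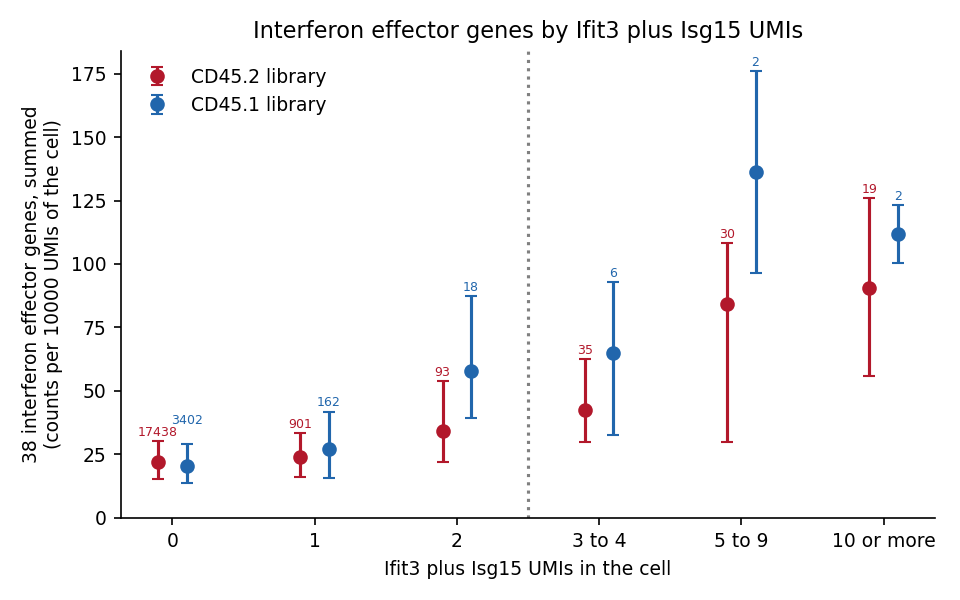
Summed level of 38 interferon effector genes (counts per 10000 molecules of the cell) against the number of Ifit3 plus Isg15 molecules (UMIs) in the cell, for each library. Points are medians, bars run from the first to the third quartile, small numbers count cells and the dotted line marks the limit of 3 molecules. In the CD45.2 library the median was 21.8 in cells with none, 34.3 at 2 molecules, 42.4 at 3 to 4 and 90.7 at 10 or more.

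The chosen cells varied in their effector level. In the CD45.2 library 54 of the 84 were above the 90th percentile of the other eligible cells for the effector sum (40.5 counts per 10000), and 11 were at or below the median of those cells. Conversely, 421 of 18432 cells outside the signature were above the median of the chosen cells (58.5), so the limit on Ifit3 and Isg15 left out cells with a like effector level. In the CD45.1 library 8 of 10 were above the 90th percentile and 1 was at or below the median. Of the 4 marker genes that the choice did not use, Irf7, Ifi213, Slfn5 and Bst2, 62 of the 84 CD45.2 cells had counts of 2 or more genes, against 1409 of 18432 others (7.64%), and 18 had all 4, against 29 (0.157%). At the other end 10 of the 84 had none of the 4.

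The cells were B cells by their markers. In the CD45.2 library Cd79a and Cd79b, the signalling chains of the B cell receptor, stood at 2451 and 1799 CPM in interferon-signature cells and 2333 and 1966 CPM in the others, and Ms4a1 and Ighm were detected in all 84. None of 10 interferon genes (Ifna1, Ifna2, Ifna4, Ifna5, Ifnb1, Ifne, Ifng, Ifnk, Ifnl2 and Ifnl3) had a count in a chosen cell of either library. With 858702 molecules in the CD45.2 cells, a limit of 3 counts allows up to 3.49 CPM for each gene. In the 10 CD45.1 cells it allows up to 39.9 CPM. These genes were near 0 in the other eligible cells too, with sums of 0.140 CPM in the CD45.2 library and 0.0503 CPM in the CD45.1 library.
The markers of other cell types were low. Trbc1, Cd4, Cd8a and Cd8b1 were at 0 in the chosen CD45.2 cells, and the summed T cell list stood at 23.3 CPM against 31.1 in the others, nearly all of it Lck. Of 11 myeloid and dendritic markers, 6 were at 0, among them Lyz2, Csf1r and the plasmacytoid dendritic cell marker Siglech, and the sum of 321 CPM against 302 was mostly Cst3 at 228 and 239. Tyrobp was at 51.2 against 31.6 CPM and Itgam at 38.4 against 22.1, and neither was called in the test below, Tyrobp with higher values in each of the 3 pools. All 4 granulocyte genes and 6 of 7 erythroid and platelet genes were at 0. The plasma cell list stood at 1875 CPM against 1757 in the CD45.2 library but at 4537 against 1828 in the 10 CD45.1 cells, where Xbp1, a factor of the secretory programme, was at 585 against 149 CPM. In wt/wt mouse 1, a CD45.2 pool of the test below, Xbp1 was at 461 against 149 CPM, Mzb1 at 2900 against 1046 and Hsp90b1 at 2043 against 386. In wt/wt mouse 3 Xbp1 was at 70.7 against 159 CPM, Mzb1 at 715 against 1025 and Hsp90b1 at 251 against 488. In cpm/cpm mouse 3 Xbp1 was at 56.9 against 117 CPM and Mzb1 at 910 against 959, but Hsp90b1 at 569 against 384. None of the 7 plasma cell genes tested was called. All 7 had a positive log2 fold change, with a median of 0.51 against -0.28 over all genes tested. The part of these secretory transcripts in the CD45.1 values and in the pools was not tested.

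Genes of several interferon lists were far higher in the chosen cells. Slfn5, a member of the Schlafen family of antiviral RNA-binding proteins (chr11:82951349-82964840), was counted at 420 CPM in CD45.2 interferon-signature cells (exact Poisson 95% interval 378 to 466) and 18.7 CPM in the others, and at 639 (471 to 847) and 10.4 CPM in the CD45.1 library. Ifit1, which binds viral RNA that lacks host cap methylation (chr19:34640871-34650009), stood at 105 (84.3 to 129) and 0.722 CPM in the CD45.2 library. Bst2, or tetherin, which holds budding virus at the membrane (chr8:71534255-71537456), stood at 222 (192 to 256) and 35.7 CPM. Irf7, the factor that amplifies interferon transcription (chr7:141262706-141266481), stood at 106 (85.3 to 130) and 10.6 CPM. Ifi213 of the PYHIN family (chr1:173566283-173599274) stood at 148 (123 to 176) and 10.4 CPM. All 5 were higher in the chosen cells of both libraries. In the CD45.2 library, 139 of 5754 genes with at least 20 CPM in either class (2.42%) were 2-fold or more higher in interferon-signature cells and 77 (1.34%) were 2-fold or more lower, as values of 1 library with no test.

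To see which differences recurred between mice, molecules were summed over the interferon-signature cells and over the other eligible cells of each mouse and compared with edgeR, with the mouse as a block. Only 3 pools had at least 5 interferon-signature cells with 1 hashtag: wt/wt mouse 1 (6 cells), wt/wt mouse 3 (13 cells) and cpm/cpm mouse 3 (5 cells), all of the CD45.2 sort. The cells were chosen by Ifit3 and Isg15 in these same libraries, so both were left out, and the p-values concern the remaining genes. With 3 pools, a small p-value does not mean that a gene differed in every pool. Igtp, for example, was called higher but was at 0 CPM in the interferon-signature cells of cpm/cpm mouse 3. Of 8257 genes tested, 87 were called higher (1.05%) and 31 lower (0.375%) at an adjusted p under 0.05. On simulated counts this fit recovered 4% of genes raised 2-fold and 62% of genes raised 4-fold. It recovered 20% of genes lowered to 0.25 of their level. A gene that was not called, here and below, may therefore still differ. The number of genes called depended on the pools used. Without wt/wt mouse 3, which gave 13 of the 24 cells, only Slfn5 was called, and without cpm/cpm mouse 3, whose hashtag marked a mixture of cells, 69 genes were called. The leading folds moved less, with log2 fold changes of 4.34 to 5.14 for Slfn5, 6.48 to 7.56 for Usp18 and 2.69 to 3.20 for Bst2 over the settings that gave each gene a value, which left out the pools of 1 or more cells for Usp18.

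The 12 genes with the largest rise, by log2 fold change, were Ifit3b, Rsad2, Ifit1, Usp18, Oasl1, Ifit2, Ifitm3, Rtp4, Ifit1bl1, Tnfsf10, Axl and Slfn5. Most encode antiviral proteins, while Tnfsf10 encodes the death ligand TRAIL and Axl a receptor kinase that restrains Toll-like receptor signalling. The last 2 rested on few molecules. In wt/wt mouse 1, wt/wt mouse 3 and cpm/cpm mouse 3, Tnfsf10 was at 43.9, 7.86 and 56.9 CPM (SE 1.22). Axl was at 43.9, 7.86 and 28.4 CPM (SE 1.36). Slfn5 was counted at 571, 511 and 1138 CPM in the interferon-signature cells of wt/wt mouse 1, wt/wt mouse 3 and cpm/cpm mouse 3, and at 21.1, 15.4 and 26.1 CPM in the other cells. It was higher in each pool, with no overlap between the classes (log2 fold change 4.94, SE 0.33, edgeR adjusted p = 3.71e-46). Usp18, which removes ISG15 from its targets and blocks the type I interferon receptor, was at 176, 118 and 171 CPM against 0.938, 1.46 and 0.339 (log2 fold change 6.89, SE 0.62). Ifitm3, a membrane protein that stops virus entry, was at 154, 259 and 228 CPM against 3.42, 5.85 and 6.10 (log2 fold change 5.35, SE 0.44). Rsad2, or viperin, was at 220, 23.6 and 142 CPM against 0.603, 0.385 and 0.339, and so varied between pools more than the others did. Ifit3b was called with a log2 fold change of 7.97, but its sequence is nearly that of Ifit3, a gene used to choose the cells, and reads could have been split between both.

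The 3 remaining markers rose with them. Irf7 was at 132, 189 and 199 CPM against 8.04, 10.0 and 8.47 (log2 fold change 4.17, SE 0.45, edgeR adjusted p = 2.36e-17). Ifi213 was at 132, 244 and 171 CPM against 11.1, 16.5 and 7.11 (log2 fold change 3.86, SE 0.43). Bst2 was at 308, 369 and 398 CPM against 36.0, 43.1 and 41.3 (log2 fold change 3.02, SE 0.34). For each of the 3 the lowest interferon-signature pool lay above the highest pool of other cells.

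**Figure D2:**
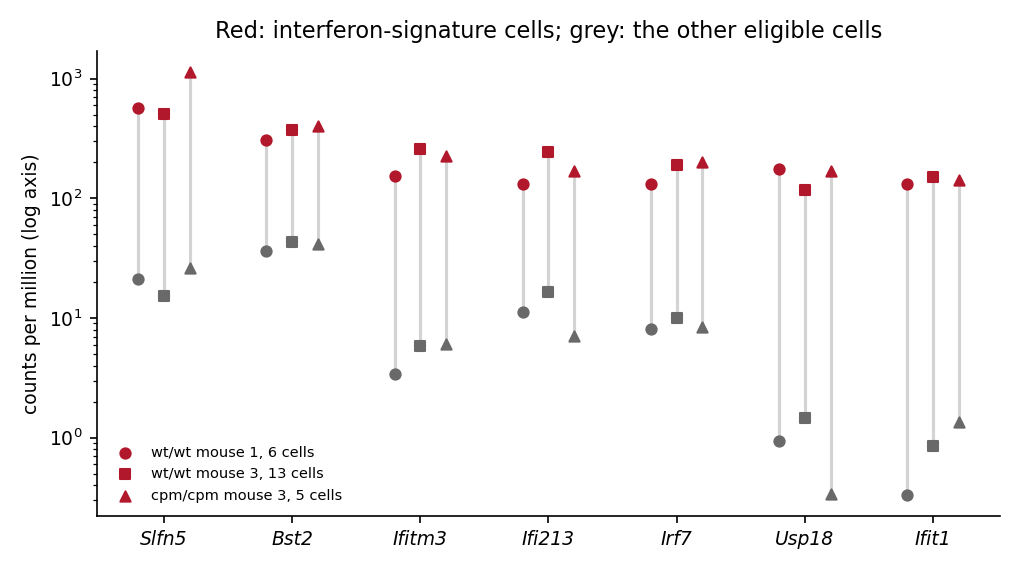
Level of 7 interferon-stimulated genes in CPM (log axis) in the 3 CD45.2 pools with at least 5 interferon-signature cells. Red symbols are interferon-signature cells, grey symbols the other eligible cells of the same mouse, and the symbol shape marks the mouse. Every red symbol lies above every grey symbol of its gene, from 511 to 1138 CPM against 15.4 to 26.1 for Slfn5.

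Of 38 effector genes in the files, 29 passed the filter on low counts and 24 were called higher, none lower. Ifi27l2a, a mitochondrial and nuclear envelope protein of the interferon response, was at 1442 CPM against 578 in the CD45.2 library, and Sp100, a nuclear body protein, at 480 against 283, and both were called. Samhd1, which depletes nucleotides, was at 469 against 294 and Apobec3, a cytidine deaminase, at 335 against 366 CPM, and neither was called. Of 26 PYHIN and TRIM30 family genes, 21 passed the filter and 14 were called higher. Ifi203 was at 734 against 256 CPM, Mndal at 582 against 302, Ifi209 at 387 against 154 and Trim30a at 353 against 81.5 CPM, all of them called. Aim2, which senses DNA in the cytosol and starts the inflammasome, was not called, at 73.4 against 55.4 CPM. Of 17 interferon-inducible GTPase genes, 10 passed the filter and 7 were called higher, led by level by Ifi47 (183 against 24.6 CPM), Irgm1 (181 against 23.4) and Gbp7 (78.0 against 11.5). Several of these families consist of close paralogs on the same chromosome, and how the reads were split between them is uncertain.

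Of 5 genes of ISG15 conjugation, 2 were called higher. These were Usp18 and Herc6, the ligase that attaches ISG15 in mice, the latter at 93.2 CPM against 16.8 in the CD45.2 library. The activating enzyme Uba7 was at 38.4 against 30.6 CPM, the conjugating enzyme Ube2l6 at 25.6 against 4.60 and the ligase Trim25 at 130 against 67.1 CPM, none of them called.

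Among 30 sensors and signalling genes, 27 passed the filter and 5 were called higher, none lower. Among them were the transcription factors Stat2 and Irf7, the cytosolic RNA sensor Ddx58 (RIG-I) and the inhibitor Socs1. Socs1, which blocks JAK kinases, was at 176, 181 and 114 CPM against 15.3, 21.8 and 14.9 (log2 fold change 3.08, SE 0.45). The receptor chains and kinases were not called. Ifnar1 was at 24.5 against 36.5 CPM in the CD45.2 library, Ifnar2 at 23.3 against 22.6, Ifngr1 at 44.3 against 55.8, Jak1 at 217 against 193 and Tyk2 at 25.6 against 21.9 CPM. Irf8, a factor that germinal centre B cells use outside the interferon response, was at 631 against 546 and Irf9 at 79.2 against 39.3 CPM, also not called.

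Surface and lymphocyte targets rose in part, and antigen presentation genes did not pass the test. Of 21 surface and lymphocyte targets, 19 passed the filter and 9 were called higher, none lower. Plac8 was at 1514 against 655 CPM in the CD45.2 library, Ly6a (Sca-1) at 767 against 330 and Ms4a4c at 427 against 161, all called, whereas Ly6e, at 1257 against 1134 CPM, was not. Isg20, an RNA exonuclease, was at 264, 212 and 142 CPM in the 3 pools against 21.2, 25.6 and 18.6 (log2 fold change 3.12, SE 0.41). All 19 MHC class I presentation genes passed the filter and none was called, with a median log2 fold change of 0.53 against -0.28 over all 8257 genes. Of the 19, 17 had a positive log2 fold change. H2-K1 was at 1460 against 1232 CPM, B2m at 1365 against 1032 and H2-D1 at 1315 against 1111 CPM in the CD45.2 library. The 10 MHC class II genes had a median log2 fold change of -0.01 and none was called, Cd74 being at 9525 against 9896 CPM.

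The 18 further marker genes that the study listed for a cluster it named Activated1, among them Plac8, Ly6a, Slfn5 and Ifitm3, were all called higher in the 3 pools. They were chosen by the study on these samples and are not independent evidence.

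**Figure D3:**
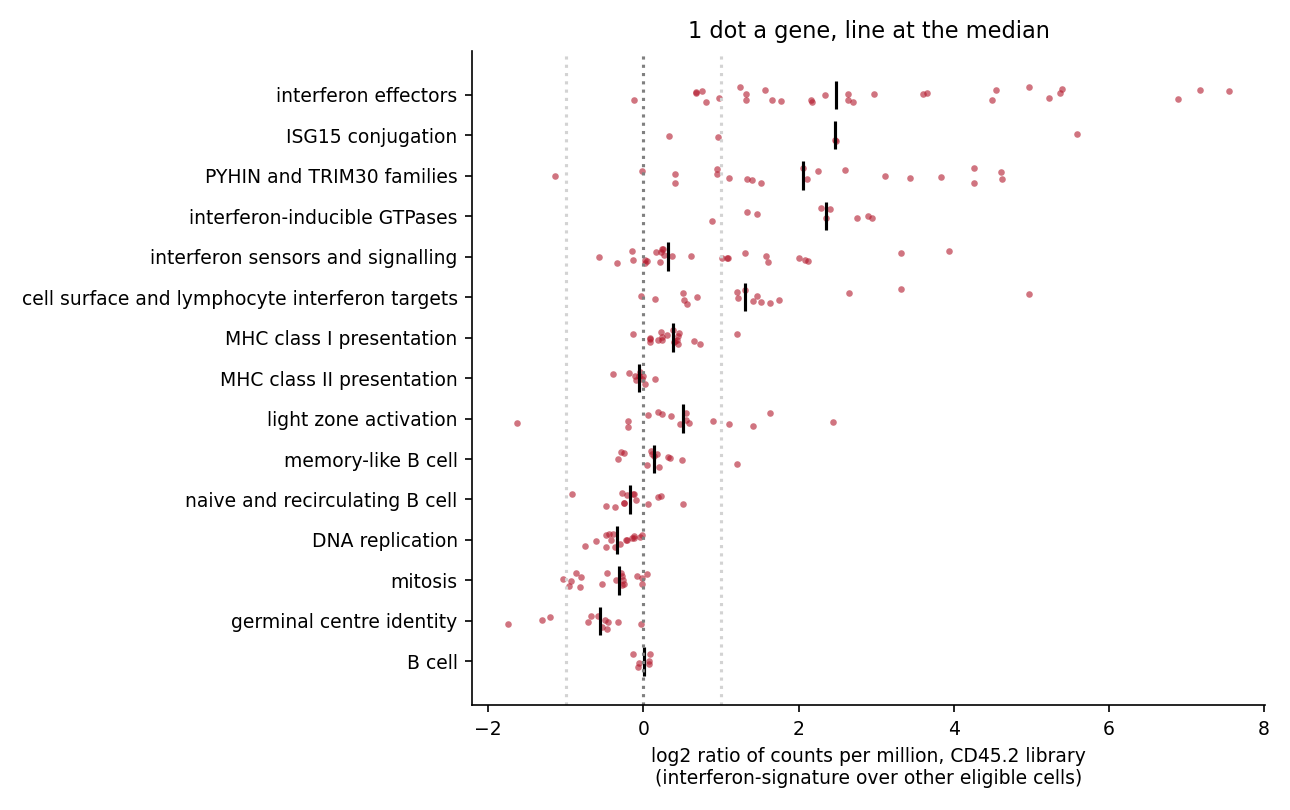
Log2 ratio of CPM between the 84 interferon-signature cells and the 18432 other eligible cells of the CD45.2 library, 1 dot for each gene with at least 20 CPM in either class, grouped by gene list, with the median as a black line. Of the genes with at least 20 CPM, 24 of 30 effector, 15 of 21 PYHIN and TRIM30 and 8 of 9 GTPase genes were at least 2-fold higher, and 139 of 5754 in all.

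The germinal centre gene S1pr2 and some cell cycle genes fell in the 3 pools, and how far the cell cycle genes differed depended on which cells were counted. S1pr2, the receptor that confines B cells to the germinal centre, was at 33.8 CPM (22.6 to 48.5) in all 84 CD45.2 interferon-signature cells against 83.7 in the others, and Mybl1, a dark zone factor, was at 51.2 (37.2 to 68.8) against 118. Basp1 was at 171 against 234 and Bach2 at 161 against 201 CPM. In the 3 pools S1pr2 was at 0, 15.7 and 0 CPM against 59.1, 73.0 and 58.3 and was the only one of 12 germinal centre identity genes called (edgeR adjusted p = 0.0425), whereas 5 of 12 were called lower in 8 pools of at least 1 cell, described below. The interferon-signature cells of wt/wt mouse 1 and cpm/cpm mouse 3 held 45524 and 35150 molecules in all, so a value of 0 there does not show absence. Fas, which encodes the sort marker CD95, was at 68.7 against 70.2 CPM.

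The 8 genes named for the largest fall were Pfdn4, Plk1, S1pr2, Cenpf, Lmnb1, Hist1h1b, Hmgb2 and Pclaf. Hmgb2, a chromatin protein of cycling cells, was at 220, 1501 and 228 CPM in wt/wt mouse 1, wt/wt mouse 3 and cpm/cpm mouse 3 against 2065, 2462 and 2087 (log2 fold change -2.14, SE 0.25, edgeR adjusted p = 2.97e-14). The 2 small pools were far lower than their comparison cells and wt/wt mouse 3 was nearer to them. Cenpf, a kinetochore protein, was at no more than 23.6 CPM in each pool of interferon-signature cells against 94.2, 151 and 112 (log2 fold change -2.85, SE 0.64). Pfdn4 and Plk1 had no count in the 24 pooled cells, and no fold is given for them. Of 18 mitosis genes 4 were called lower and of 16 DNA replication genes 2, with medians of -1.41 and -1.15 on the log2 scale against -0.28 over all genes. In the 8 pools 9 of 18 mitosis genes were called lower. These calls depended on the method and the pools: of all genes, 31 were called lower, but 3 with DESeq2, which called Hmgb2 and not S1pr2, Cenpf, Plk1, Mki67 or Top2a, and 5 without wt/wt mouse 1.

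Over all 84 CD45.2 cells the summed mitosis list stood at 1627 against 2152 CPM and the DNA replication list at 1378 against 1710, and in the 10 CD45.1 cells the mitosis list stood at 399 against 1802. The difference was not of 1 direction in all hashtag states. Of the 84 CD45.2 cells, 28 had the hashtag of 1 mouse, 34 had counts of several hashtags with no single mouse, and 22 had no hashtag counts. The mitosis list stood at 1026 CPM in the first, 1475 in the second and 2766 in the third, against 2022, 2038 and 2417 CPM in the other eligible cells of the same hashtag states. It was thus lower than in the comparison cells where hashtags were counted and higher where they were not. The effector sum was higher in all 3 states, at 7937, 5502 and 4765 CPM against 2301, 2272 and 2144. Over all 84 cells Mki67 was at 319 against 380 CPM and Top2a at 284 against 345, and in cells thinned to 2000 molecules Mki67 was detected in 29.8% of interferon-signature cells and 29.6% of the others.

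**Figure D4:**
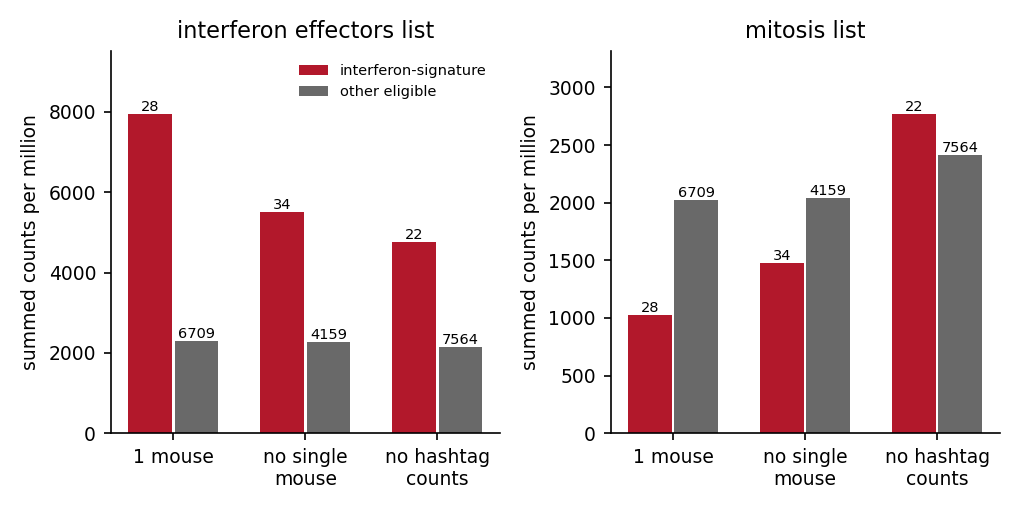
Summed CPM of the interferon effector list (left) and the mitosis list (right) in the CD45.2 library, by whether a cell's hashtags named 1 mouse, named no single mouse or were not counted. Red bars are interferon-signature cells, grey bars the other eligible cells, and the number of cells stands above each bar. The effector list was higher in red in all 3 states, and the mitosis list was lower in the first 2 and higher in the third, 2766 against 2417 CPM.

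Cells whose hashtags named several mice could be doublets. Seurat's HTODemux called 44 of the 84 CD45.2 cells doublets and 18 singlets, against 5955 doublets and 4913 singlets among the 18432 other cells. Doublets by this call thus made up a larger share of the interferon-signature cells than of the others. Leaving out the 6% of barcodes with the most molecules removed 8 of the 84 cells but only 1 of the 24 in the 3 pools, where 115 genes were then called.

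Of the light zone activation genes tested in the 3 pools, 16 had a positive log2 fold change, with a median of 0.81 against -0.28 over all genes. In the 8 pools 11 had a positive one and none was called. Of 19 genes, 18 passed the filter and 2 were called in the 3 pools. These were Mir155hg, the host transcript of the B cell activation microRNA miR-155, and Bcl2a1b, a survival factor of the BCL2 family with near-identical copies. Mir155hg was at 141 CPM (117 to 168) against 25.9 in the CD45.2 library. Among the pools, wt/wt mouse 3 had 30 counts, at 236 CPM against 24.6, while wt/wt mouse 1 and cpm/cpm mouse 3 had 1 count each, beside 19.8 and 34.9 CPM in their other cells. The classes overlapped, so the call rested on wt/wt mouse 3, without which the log2 fold change of Mir155hg was -0.36. In the 10 CD45.1 cells Mir155hg was at 13.3 CPM against 26.4. Myc was at 67.5 against 21.8 CPM and Batf at 64.0 against 24.1 in the CD45.2 library, Il4i1 at 270 against 185 and Cd83 at 247 against 216, none of them called. Genes of naive and recirculating cells showed no call among 14, with Ighd at 390 against 373 and Klf2 at 374 against 435 CPM. Of 16 memory-like genes 1 was called, Plac8, which is also an interferon target. Of 10 apoptosis, 12 stress and 9 RNA quality genes, 8, 7 and 9 passed the filter and none was called, with Bax at 191 against 194 CPM, Jund at 531 against 544 and Malat1 at 11847 against 11400.

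Whether DOCK8 deficiency changed the frequency of these cells was compared over mice. In the CD45.2 sort the share was 0.315% (6 of 1906 eligible cells), 0.156% (4 of 2561) and 0.856% (13 of 1518) in wt/wt mice 1 to 3. It was 0 of 210 and 0 of 137 cells in cpm/cpm mice 1 and 2, for which a limit of 3 cells allows shares of 1.43% and 2.19% and the exact interval reaches 1.74% and 2.66%, and 1.23% (5 of 405) in mouse 3. The groups overlapped, with means of 0.442% ± 0.367 (SD, n = 3) and 0.412% ± 0.713 (n = 3), and the two-sided exact permutation test gave p = 1, where 0.1 is the smallest value that 3 against 3 mice allow. The sign of this difference turned when cpm/cpm mouse 1, cpm/cpm mouse 2 or wt/wt mouse 3 was left out (0.175, 0.175 and 0.176 percentage points in place of -0.0309). HTODemux singlets left 54, 37 and 86 eligible CD45.2 cells in the cpm/cpm mice with 0 interferon-signature cells, too few for a comparison of shares. For the CD45.1 cells, Dock8 wt/wt in all mice, the share was 0, 0 and 0.255% in the wt/wt group and 0.351%, 0.249% and 0.278% in the cpm/cpm group, each from at most 2 cells (exact permutation p = 0.2). That difference of 0.208 points was 0.373 with HTODemux singlets and 0.337 with a limit of 5 molecules per 10000. In both settings the groups did not overlap (exact permutation p = 0.1, the smallest value possible), with at most 3 interferon-signature cells per mouse. Between the sorts, depth differed as well, with a median of 6469 molecules in eligible CD45.2 cells and 4754 in eligible CD45.1 cells. The CD45.2 share was higher than the CD45.1 share of the same mouse in 4 of 6 mice, with a mean difference of 0.238 percentage points (two-sided exact paired permutation p = 0.312). With HTODemux singlets, which left no CD45.2 interferon-signature cell in the cpm/cpm mice, it was -0.0240 points. Without cpm/cpm mouse 3 it was 0.0943 points, and with a limit of 5 molecules per 10000 it was 0.0429. That within-mouse difference was 0.358 ± 0.226 points in the wt/wt group and 0.119 ± 0.728 in the cpm/cpm group (exact permutation p = 0.6).

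**Figure D5:**
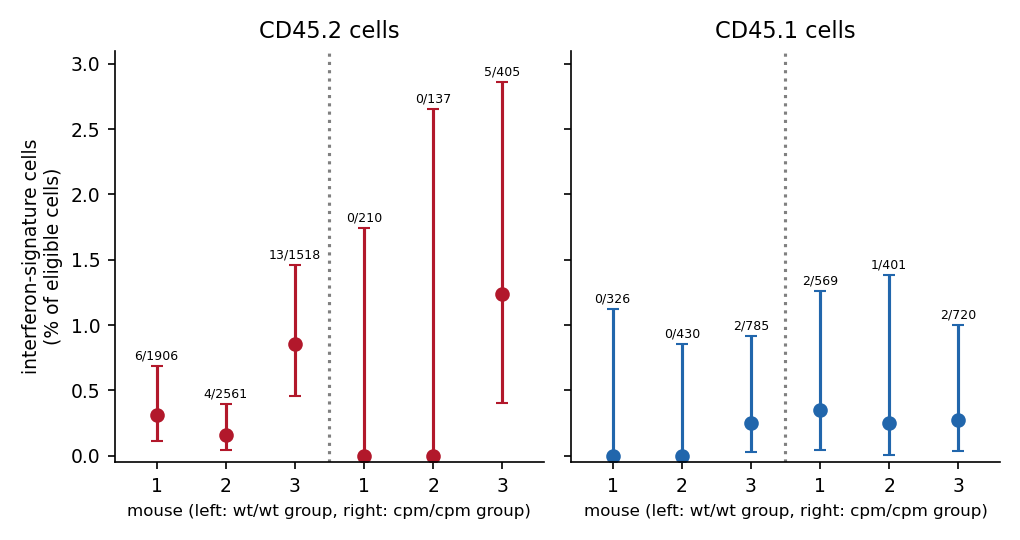
Share of eligible cells that were interferon-signature cells (%) in each mouse, for CD45.2 cells (left) and CD45.1 cells (right), with exact binomial 95% intervals that cover counting error only and the number of cells above each. The wt/wt recipients stand left of the dotted line and the cpm/cpm recipients right of it. The groups overlap in both sorts, and cpm/cpm mice 1 and 2 had no such CD45.2 cell.

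The content of the signature could not be tested between genotypes, because the 5 cells of cpm/cpm mouse 3 were the only CD45.2 ones with a cpm/cpm hashtag, 2 of which held a count of a Y-linked gene and 4 of Xist. None of the 5 was a singlet of a cpm/cpm mouse by HTODemux. Their effector sum was 10071 CPM, beside 8787, 5235 and 7615 CPM in the 6, 4 and 13 cells of wt/wt mice 1 to 3. Bst2 was at 398 CPM in them and at 308, 37.1 and 369 CPM in the wt/wt mice, and Irf7 at 199 CPM beside 132, 0 and 189. Dock8 mRNA, whose level does not check a point mutation, was at 171 CPM (6 counts) beside 264, 111 and 86.4 CPM. In the other eligible CD45.2 cells Dock8 was at no more than 105 CPM in each cpm/cpm mouse and at 106 to 117 CPM in the wt/wt mice.

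Whether the signature differed between the sorts was tested in pools with at least 1 interferon-signature cell, 4 of CD45.1 and 4 of CD45.2, an extension chosen after the cell numbers were known. Of 7568 genes, Bcl2a1b alone had a fold that differed between the sorts. It was at 215, 0, 335 and 0 CPM in the CD45.1 pools, which held 1 or 2 cells each, and at 110, 780, 582 and 370 CPM in the CD45.2 pools, against 154 to 178 and 105 to 131 CPM in the other cells (log2 difference 3.54, SE 0.77, edgeR adjusted p = 0.0353). DESeq2 did not call it (adjusted p = 0.970). Over all interferon-signature cells, with or without a single hashtag, Bcl2a1b was at 239 CPM (142 to 378) against 168 in the CD45.1 library. It was at 266 against 123 CPM in the CD45.2 library, log2 ratios of 0.51 and 1.11. The CD45.1 interval held the level of the other cells. Of the 18 counts in that library, the 4 CD45.1 pools held 3, 0, 1 and 0, so cells without a single hashtag carried the CD45.1 direction. In these 8 pools 63 genes were called higher in interferon-signature cells (0.832%) and 100 lower (1.32%), of which 50 and 24 were also called in the 3 pools. Of the genes left unchanged in simulated counts, the fit of 8 pools called 0.760% and the fit of 3 pools 0.0372%, so the calls in 8 pools are less certain. Slfn5 and Ifitm3 kept log2 fold changes of 5.06 and 5.29 there.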

How the data were processed

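Unique molecule counts per gene and cell (10X Genomics 3′ chemistry) and hashtag counts per cell were used as deposited by the authors, who aligned reads to mm10 with Cell Ranger 5.0.1 and analysed cells with Seurat 4.0. The libraries held 196679316 (CD45.2) and 37309131 (CD45.1) molecules. Counts are 1 per molecule and not divided by gene length, so levels were compared between cells and not between genes. The members and gene lists were chosen with earlier results of these data known.

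A cell was given to the mouse whose hashtag had at least 10 counts and 3 times the next. Shares were compared over mice with two-sided exact permutation tests, with 3 mice per group. Genes were tested on counts summed per mouse and class with edgeR 4.0.16 (TMM scaling, quasi-likelihood test, mouse as block, Benjamini-Hochberg adjustment over all genes tested, R 4.3.3). A minimum of 10 interferon-signature cells per pool was planned, but it left 1 pool, so 5 were required. Cells from the same mouse are paired by design. Genes named were the 12 called genes with the largest rise and the 8 with the largest fall that moved the same way in every pool and reached 20 CPM, the 6 markers, the rule genes, Dock8, sex-linked genes and up to 4 members of each list with the highest CPM in interferon-signature cells. Other list members, such as Ifnar1, Socs1 and Mir155hg, were chosen after their values were seen. The fits were tested on simulated counts. Alternatives were DESeq2 1.42.0, library size scaling, no filter on low counts, no block, HTODemux (Seurat 5.3.0), other limits on cells, thinning to 2000 molecules and leaving out each mouse. Mx1, Mx2, Mnda and Gbp11 were not used here. Some listed genes are not reported here. No doublet caller was run on the mRNA counts.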

Additional observations from a re-analysis of the deposited data

Results flagged for a closer look

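The difference of Bcl2a1b between the sorts (log2 3.54 in 8 pools) was marked because the difference of the folds itself passed the test. The call was lost with DESeq2 (2.86, adjusted p = 0.970), with library size scaling (2.97, edgeR adjusted p = 0.129), with no filter on low counts (3.53, adjusted p = 0.112) and with HTODemux singlets (3.01, adjusted p = 0.700), and when any of 4 of the 6 mice was left out, while the log2 difference stayed between 2.85 and 4.94. Over all cells chosen, those without a single hashtag included, the log2 ratios of Bcl2a1b were 0.51 in the CD45.1 library and 1.11 in the CD45.2 library, which is much less apart. It rested on CD45.1 pools of 1 or 2 cells, and Bcl2a1b has near-identical copies.

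Barcodes with 50 or more Jchain counts per 10000, which entered no comparison, also held cells with 3 or more Ifit3 and Isg15 molecules. In the CD45.1 library these were 47 of 1411 barcodes (3.33%, exact binomial 95% interval 2.46 to 4.41), and in the CD45.2 library 79 of 4382 (1.80%, 1.43 to 2.24). They were deeper than the remaining Jchain-high barcodes, with median counts of 14672 against 10809.5 and 13645 against 9300 molecules. Their effector sum was higher in both libraries, at 2627 against 1572 CPM in CD45.1 and 2843 against 1663 CPM in CD45.2. Irf7 was at 32.3 against 9.23 and 31.9 against 9.78 CPM. Slfn5 stood at 0 against 0.624 CPM in the CD45.1 library and at 29.3 against 6.16 in the CD45.2 library, and Bst2 at 407 against 233 and 271 against 128 CPM. The part of depth in these shares was not tested.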

How the results depend on the processing

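Leaving out each mouse moved the CD45.2 difference in share between cpm/cpm and wt/wt from -0.0309 to between -0.442 and 0.176 percentage points. Its sign turned without cpm/cpm mouse 1 or mouse 2 (0.175 each) and without wt/wt mouse 3 (0.176). The difference between the sorts turned with HTODemux singlets (-0.0240) and when cells were thinned to 2000 molecules and 1 or more molecules were required in place of 3 (-0.0426), which changed the depth and the limit together. HTODemux singlets left 0 interferon-signature cells among 54, 37 and 86 CD45.2 cells of the cpm/cpm mice, so the values by group under that setting say nothing on genotype. Leaving out a mouse moved the within-mouse difference between groups, -0.239, to between -0.658 and -0.00382 points, and the difference between the sorts, 0.238, to between 0.0943 and 0.356.

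The number of genes called, 118, was 36 with thinned cells. It was 75 with HTODemux singlets and 49 with a limit of 5 Ifit3 and Isg15 molecules per 10000, both in 2 pools because cpm/cpm mouse 3 dropped out, and was 1 to 69 with a mouse left out (62 without wt/wt mouse 1, 1 without wt/wt mouse 3 and 69 without cpm/cpm mouse 3). Without the replicate block it was 121, of which 105 were higher and 16 lower. DESeq2 called 89 higher and 3 lower, and pools of 1 or more cells 63 higher and 100 lower. Of 76 called genes that are named or listed, 1 changed sign under a setting that gave it a value, Mir155hg without wt/wt mouse 3 (log2 fold change -0.36, with a mouse left out up to 2.71). Of those with a value, DESeq2 lost 15 of 76 calls, thinning 33 of 62 and the fit without a block 5 of 76. Pools of 1 or more cells gave values for 59. The 1 gene that differed between the sorts became 0 with DESeq2, 0 with no filter on low counts, 3 with library size scaling and 0 to 11 with a mouse left out. A limit of 5 molecules left 1 pool, and no CD45.1 pool held 5 cells, so neither was fitted. Few cells per mouse limit every comparison.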
